A study of Mus musculus with 4 samples.

Results

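The Wnt pathway genes described here are 39 named genes, comprising 19 Wnt ligands, 12 receptors and co-receptors (Fzd1 to Fzd10, Lrp5 and Lrp6), 5 feedback and target genes (Axin2, Nkd1, Dkk1, Lef1 and Tcf7) and 3 further components, Ctnnb1, Porcn and Sfrp1. They were chosen by symbol from 22410 named genes, and all 39 were found, on 53 transcript rows. The labels describe poly(A) RNA, and also name an exome enrichment kit, for mouse embryonic stem (ES) cells on a C57BL/6X129Sv mixed background, kept below 20 passages in serum and leukemia inhibitory factor. Their genotype was p53+/+ or p53-/- (Trp53, which encodes p53, is the altered gene), and they were either untreated or exposed to Adriamycin at 0.5 uM over 8 h. Adriamycin (doxorubicin) is a topoisomerase II poison that breaks DNA. Each of the 4 groups, p53+/+ untreated, p53+/+ Adriamycin, p53-/- untreated and p53-/- Adriamycin, is 1 library, so differences lack any check against replicates and p-values are not given. The labels do not say whether each genotype is 1 clone.

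Wnt proteins are secreted, lipid-modified ligands. Porcn attaches the lipid, and the ligand then binds a Frizzled receptor together with Lrp5 or Lrp6. In the canonical branch this stops the destruction of beta-catenin, the product of Ctnnb1, which enters the nucleus and works with TCF and LEF factors. Among the genes it commonly turns on are Axin2, Nkd1 and Dkk1, whose products dampen the pathway again. In mouse ES cells canonical Wnt signalling is known for its support of self-renewal.

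Levels are in FPKM (fragments scaled to transcript length and to the mapped fragments of the library), summed over the transcripts of a gene. Differences are of log2(FPKM + 1), which understates the change of genes at low levels, and the call of higher or lower requires a size of 1 or more. Such a call needs a level of at least 1 FPKM in a library, which 30 of the 39 members and 13021 of all named genes reached. The others were Wnt1, Wnt2, Wnt2b, Wnt5b, Wnt7a, Wnt9b, Wnt10b, Wnt16 and Fzd1, none of which exceeded 0.903 FPKM. Trp53 stood at 216 FPKM (untreated) and 165 FPKM (Adriamycin) in p53+/+ cells, and at 78.6 and 76.5 FPKM in the same order in p53-/- cells, so it was lower but not absent in the p53-/- libraries. Mean read depth times transcript length, summed over all transcript rows, stands here for sequencing depth. It came to 4.32 (untreated) and 4.15 (Adriamycin) gigabases in p53+/+ cells, and to 3.34 and 3.52 gigabases in the same order in p53-/- cells. All 8 ES cell markers fixed for this work stood at 38.9 FPKM or more in every library.

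In untreated p53+/+ cells the ligands were scarce and the receiving side of the pathway was not. The 19 ligands summed to 9.46 FPKM, with 3 of them at 1 FPKM or more (Wnt6, Wnt7b and Wnt11). The 12 receptors and co-receptors summed to 87.4 FPKM, led by Fzd5 at 23.4 FPKM, Lrp5 at 17.4 FPKM, Fzd7 at 16.99 FPKM and Lrp6 at 11.8 FPKM. Ctnnb1 was the most abundant of the 39 at 317 FPKM, followed by Porcn at 47.7 FPKM and Tcf7 at 25.7 FPKM.

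After Adriamycin, 9 of the 39 genes were higher and 2 lower in p53+/+ cells. The 9 were the ligands Wnt3, Wnt9a, Wnt8b, Wnt3a, Wnt6, Wnt4, Wnt8a and Wnt10a, and the receptor Fzd10. The 2 lower genes were Sfrp1, a secreted Frizzled-related protein that binds Wnts, and Lef1, a transcription factor that pairs with beta-catenin. Among all named genes 6.63% were higher and 1.62% lower in this comparison, and among the genes at 1 FPKM or more 11.4% were higher and 2.79% lower. By role, 8 of 19 ligands, 1 of 12 receptors and 0 of 5 feedback genes were higher. None of the ligands, none of the receptors and 1 of the 5 feedback genes (Lef1) were lower. On this scale only a gene at 1 FPKM or more in untreated p53+/+ cells can be called lower. That level was reached there by 3 of the 19 ligands, 10 of the 12 receptors and 3 of the 5 feedback genes. The counts of lower genes therefore cannot be compared between the roles. With the scale quantile normalized, the median over all genes moved from 0.05 to -0.10 and the share of higher genes among those called from 80.4% to 65.3%, and Wnt10a (0.69) and Fzd10 (0.97) then fell short of the call.

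**Figure D1:**
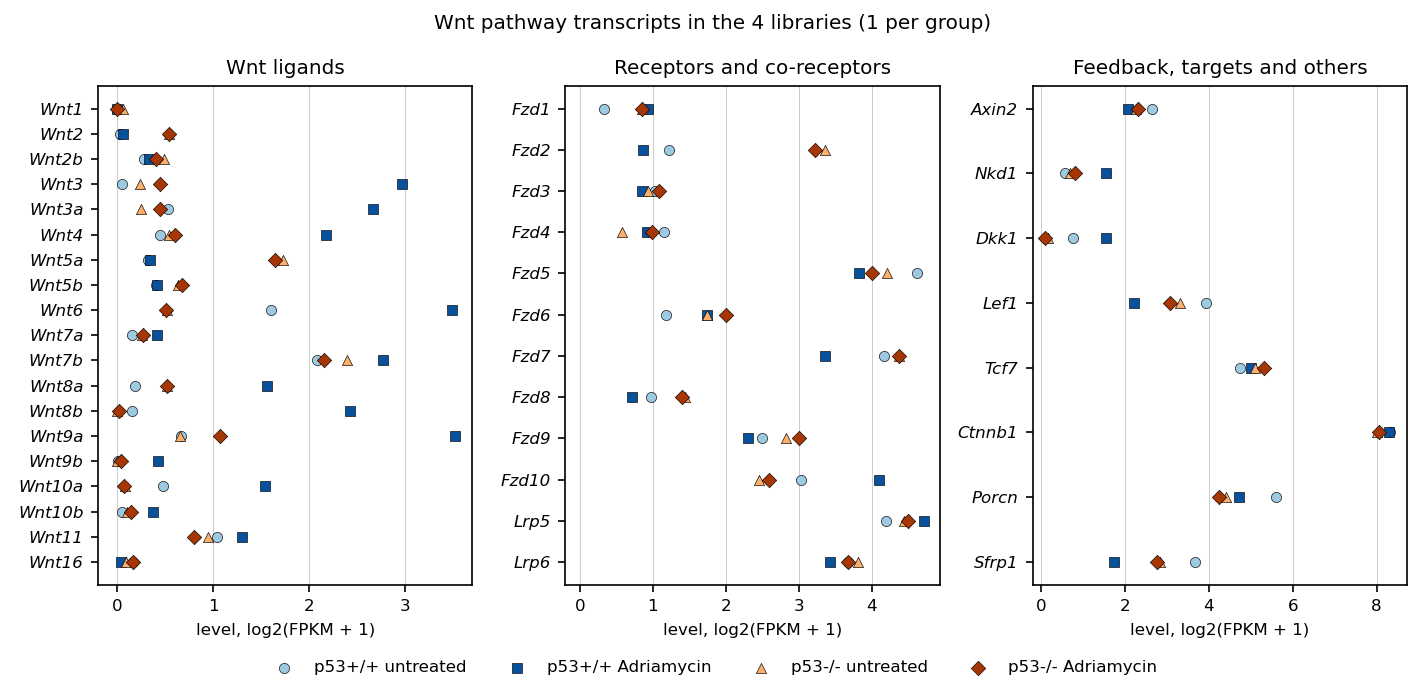
Level of each of the 39 genes as log2(FPKM + 1), horizontal axis, in the 4 libraries (1 symbol each, no replicates), in panels for ligands, receptors, and the feedback and other genes. The treated p53+/+ library stands to the right of the other 3 for Wnt3, Wnt3a, Wnt4, Wnt6, Wnt8a, Wnt8b, Wnt9a, Wnt10a and Fzd10, while the p53-/- libraries stand to the right for Wnt5a and Fzd2.

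The ligands Wnt3 and Wnt9a had the largest differences. Wnt3, a ligand needed for gastrulation of the mouse embryo, stood at 0.0374 FPKM (untreated) and 6.82 FPKM (Adriamycin) in p53+/+ cells, and at 0.182 and 0.360 FPKM in the same order in p53-/- cells. The authors' lower and upper bounds were 0 to 0.0701 FPKM before and 5.96 to 7.40 FPKM after treatment of p53+/+ cells, and the mean read depth along the transcript was 0.183 and 35.3. The Wnt3 response was thus 2.91 in p53+/+ and 0.20 in p53-/- cells. Such bounds belong to 1 library each and do not hold the spread between cultures.

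Wnt9a stood at 0.582 FPKM (untreated) and 10.5 FPKM (Adriamycin) in p53+/+ cells, and at 0.572 and 1.11 FPKM in the same order in p53-/- cells. Its bounds were 0.417 to 0.745 and 9.40 to 11.5 FPKM in the p53+/+ libraries and 0.395 to 0.760 and 0.843 to 1.37 FPKM in the p53-/- libraries. Wnt9a was therefore far higher in the treated p53+/+ library than in the other 3, and its bounds also did not overlap between the p53-/- libraries. The responses were 2.87 and 0.42.

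Wnt3a, the ligand most used to activate the canonical branch in culture, stood at 0.441 FPKM (untreated) and 5.37 FPKM (Adriamycin) in p53+/+ cells, and at 0.189 and 0.360 FPKM in the same order in p53-/- cells. Wnt8b stood at 0.114 FPKM (untreated) and 4.39 FPKM (Adriamycin) in p53+/+ cells, and at 0 and 0.0138 FPKM in the same order in p53-/- cells. The treated p53+/+ library was the only one of the 4 in which either gene reached 1 FPKM. The p53+/+ response was 2.14 for Wnt3a and 2.27 for Wnt8b, against 0.19 and 0.02 in p53-/- cells. The low values rest on few reads, with a mean read depth of 0.572 for Wnt8b in untreated p53+/+ cells.

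Wnt6 was the only one of the 8 ligands already above 1 FPKM in untreated p53+/+ cells. It stood at 2.04 FPKM (untreated) and 10.2 FPKM (Adriamycin) in p53+/+ cells, and at 0.437 and 0.421 FPKM in the same order in p53-/- cells. Its level was 5.03-fold higher after treatment of p53+/+ cells, and both p53-/- libraries lay below both p53+/+ libraries. Wnt4, a ligand known from kidney and gonad development, stood at 0.361 FPKM (untreated) and 3.54 FPKM (Adriamycin) in p53+/+ cells, and at 0.453 and 0.519 FPKM in the same order in p53-/- cells. Its responses were 1.74 and 0.064.

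Wnt8a and Wnt10a completed the higher ligands, at lower levels. Wnt8a, a ligand of the early primitive streak, stood at 0.137 FPKM (untreated) and 1.96 FPKM (Adriamycin) in p53+/+ cells, and at 0.435 and 0.430 FPKM in the same order in p53-/- cells. Wnt10a stood at 0.391 FPKM (untreated) and 1.92 FPKM (Adriamycin) in p53+/+ cells, and at 0.0545 and 0.0496 FPKM in the same order in p53-/- cells. The treated p53+/+ library was again the highest of the 4 for both, with bounds of 1.40 to 2.52 FPKM for Wnt8a and 1.45 to 2.36 FPKM for Wnt10a. The p53+/+ response was 1.38 for Wnt8a and 1.07 for Wnt10a, just past the call.

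The other 11 ligands were not called in this comparison. Wnt7b stood at 3.23 FPKM (untreated) and 5.85 FPKM (Adriamycin) in p53+/+ cells, and at 4.28 and 3.46 FPKM in the same order in p53-/- cells, a p53+/+ response of 0.70. It was the leading ligand in every library except the treated p53+/+ one, where Wnt9a, Wnt6 and Wnt3 were above it. Its transcripts overlap those of AU022754, and Wnt5b encloses Fbxl14. Whether reads were counted by strand is not given in the sources used here, so reads of such overlapping genes may not be told apart. Wnt11 stood at 1.05 FPKM (untreated) and 1.47 FPKM (Adriamycin) in p53+/+ cells, and at 0.930 and 0.743 FPKM in the same order in p53-/- cells, a p53+/+ response of 0.27 that was -0.12 after quantile normalization. Wnt9b went from 0.00841 to 0.341 FPKM and Wnt10b from 0.0358 to 0.297 FPKM in p53+/+ cells, both with bounds that did not overlap and both below 1 FPKM. Wnt1 was listed at 0 in 3 libraries and at 0.0443 FPKM in untreated p53-/- cells. Over all 19 ligands the sum was 54.0 FPKM in treated p53+/+ cells and 11.6 and 11.4 FPKM in the p53-/- libraries. The median p53+/+ response of all 19 was 0.41, beside 0 for all named genes.

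Of the 8 higher ligands, 5 lie beside another Wnt gene, as do 8 of all 19 ligands. Of the 39 members, 4 pairs lie within 100000 bases of each other with 0 other named genes between them, and all 4 are ligand pairs (positions in mm9). Wnt3a (chr11:59061544-59104253) and Wnt9a (chr11:59120432-59147054) are 16178 bases apart and point away from each other, and both were higher. Wnt6 (chr1:74818466-74831893) and Wnt10a (chr1:74838593-74850749) are 6699 bases apart on the same strand, and both were higher. Wnt9b (chr11:103588677-103611135) and Wnt3 (chr11:103635489-103679335) are 24353 bases apart and point away from each other. In this pair Wnt3 was higher, while Wnt9b stayed at or below 0.341 FPKM. Wnt10b (chr15:98602183-98608581) and Wnt1 (chr15:98620288-98624261) are 11706 bases apart and also point away from each other, and neither reached 1 FPKM. Within each of the first 3 pairs the level after treatment of p53+/+ cells was unequal, at 10.5 against 5.37 FPKM, 10.2 against 1.92 FPKM and 6.82 against 0.341 FPKM.

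**Figure D2:**
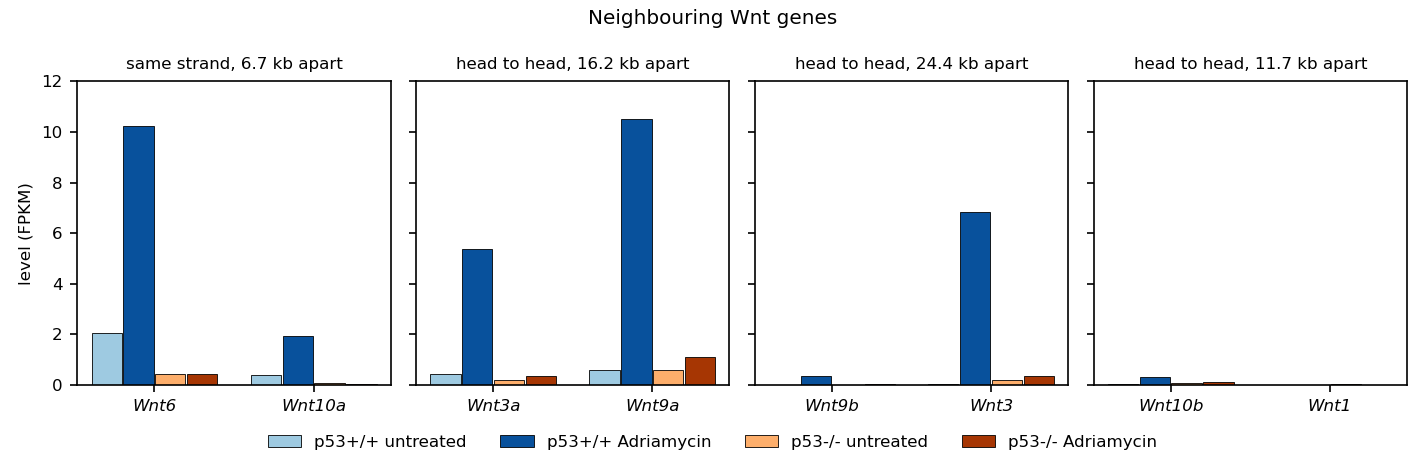
Level in FPKM (vertical axis, linear, starting at 0) of the 8 ligands in the 4 neighbouring pairs, with 1 bar per library and no error bars because each group is 1 library. The treated p53+/+ bar is the tallest for every gene except Wnt1, reaching 10.5 FPKM for Wnt9a and 0.341 FPKM for Wnt9b.

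The upstream sequences of the members were searched for motif letters. RefSeq entries (GRCm38.p6, a different build from the mm9 of the expression tables) were used for 27 of the 39 genes, and the window was the 250 bases before the annotated start. The p53 half-site consensus, the palindromic decamer that p53 binds in pairs, was found in 7.13% of all 32851 such windows and upstream of 1 of 15 ligands, Wnt11. A full p53 site, meaning half-sites separated by 0 to 13 bases, was in 0.0639% of windows and upstream of 0 of the 15 ligands. A TCF/LEF core, CTTTGA on either strand, was in 13.8% of windows, and upstream of 2 of 15 ligands and 2 of 5 feedback genes. The member counts are per gene, with a match in any window of the gene, so they cannot be set directly against shares of windows. Lef1, which has several windows, matched only in the one at chr3:131156044-131156293. A match is a description of letters and not a binding site, and the absence of one says only that these letters are not in this window. The 2 motifs did not overlap in any window printed. The windows below are shown 5' to 3' in the direction of the gene, for Wnt3, Wnt3a and Wnt9a, which were among the 4 ligands with the largest responses and have no match, and for Wnt11 (the first of its entries) and Dkk1, where capitals mark the p53 half-site or the TCF/LEF core.
Wnt3 (chr11:103773925-103774174, plus strand): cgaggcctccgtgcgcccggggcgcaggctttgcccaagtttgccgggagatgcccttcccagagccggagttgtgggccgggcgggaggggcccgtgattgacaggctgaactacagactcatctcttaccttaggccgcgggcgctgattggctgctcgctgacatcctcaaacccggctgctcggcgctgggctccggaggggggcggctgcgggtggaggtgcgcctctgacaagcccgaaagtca
Wnt3a (chr11:59290752-59291001, minus strand): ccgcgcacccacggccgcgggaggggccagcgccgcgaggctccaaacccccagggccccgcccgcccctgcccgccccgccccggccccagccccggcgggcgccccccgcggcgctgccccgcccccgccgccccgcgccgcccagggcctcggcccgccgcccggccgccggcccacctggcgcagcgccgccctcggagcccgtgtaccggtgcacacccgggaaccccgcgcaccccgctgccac
Wnt9a (chr11:59306680-59306929, plus strand): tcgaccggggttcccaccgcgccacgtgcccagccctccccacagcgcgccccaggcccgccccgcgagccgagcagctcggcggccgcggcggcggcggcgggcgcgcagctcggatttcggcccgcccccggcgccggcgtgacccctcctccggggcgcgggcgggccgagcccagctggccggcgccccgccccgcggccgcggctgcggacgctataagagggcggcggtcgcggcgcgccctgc
Wnt11 (chr7:98834862-98835111, plus strand): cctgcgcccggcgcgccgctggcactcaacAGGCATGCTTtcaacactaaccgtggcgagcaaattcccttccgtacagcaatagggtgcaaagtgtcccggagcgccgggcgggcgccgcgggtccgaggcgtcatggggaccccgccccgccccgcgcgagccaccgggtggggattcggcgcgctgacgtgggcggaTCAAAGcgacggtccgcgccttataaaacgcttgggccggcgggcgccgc
Dkk1 (chr19:30549497-30549746, minus strand): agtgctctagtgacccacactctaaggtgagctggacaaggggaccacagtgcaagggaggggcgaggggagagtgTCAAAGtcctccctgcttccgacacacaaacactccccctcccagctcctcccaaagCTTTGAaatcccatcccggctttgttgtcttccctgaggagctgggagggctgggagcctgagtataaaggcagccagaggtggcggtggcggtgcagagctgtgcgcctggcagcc
The Wnt3a and Wnt9a windows were rich in G and C, at 87.6% and 84.4%, and the Wnt3 window held 68.0%. The Wnt11 window holds the half-site 220 bases and a TCF/LEF core 50 bases before the start, and Dkk1 holds its TCF/LEF cores at 174 and 117 bases. Wnt11, with a half-site, had a p53+/+ response of 0.27, and Wnt3, Wnt3a and Wnt9a, without one, had responses of 2.91, 2.14 and 2.87. Wnt3, Wnt3a and Wnt9a were printed for their large responses, and sequence beyond these windows was not searched. Any link between the motifs and the responses was not tested.

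The receptors differed in both directions after treatment of p53+/+ cells. Fzd10 was the called one, at 7.12 FPKM (untreated) and 16.1 FPKM (Adriamycin) in p53+/+ cells, and at 4.46 and 5 FPKM in the same order in p53-/- cells, a 2.27-fold higher level after treatment of p53+/+ cells (difference 1.08). Its bounds were 6.20 to 7.69 and 14.5 to 16.95 FPKM, so the treated p53+/+ library stood clear of the other 3. The 2 Frizzled receptors that were highest in untreated p53+/+ cells were both lower there after treatment without reaching the call. Fzd5 went from 23.4 to 13.2 FPKM (-0.79) and Fzd7 from 16.99 to 9.22 FPKM (-0.82). In p53-/- cells Fzd5 stood at 17.5 and 15.04 FPKM and Fzd7 at 19.6 and 19.7 FPKM.

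The co-receptors were steadier. Lrp5 stood at 17.4 FPKM (untreated) and 25.2 FPKM (Adriamycin) in p53+/+ cells, and at 20.7 and 21.6 FPKM in the same order in p53-/- cells, and Lrp6 at 11.8 FPKM (untreated) and 9.74 FPKM (Adriamycin) in p53+/+ cells, and at 12.97 and 11.8 FPKM in the same order in p53-/- cells. Their p53+/+ responses were 0.51 and -0.25, with bounds that did not overlap between the p53+/+ libraries. Fzd6 stood at 1.26 FPKM (untreated) and 2.34 FPKM (Adriamycin) in p53+/+ cells, and at 2.35 and 3.02 FPKM in the same order in p53-/- cells. Its p53+/+ response was 0.56 with its transcripts summed and -0.07 in its main transcript. Fzd3, Fzd4, Fzd8 and Fzd9 had p53+/+ responses between -0.25 and -0.18, and all 4 are receptors of the same family. Fzd9, the most abundant of them, stood at 4.61 FPKM (untreated) and 3.91 FPKM (Adriamycin) in p53+/+ cells, and at 6.06 and 6.98 FPKM in the same order in p53-/- cells. Fzd3 stood at 1.05 FPKM (untreated) and 0.811 FPKM (Adriamycin) in p53+/+ cells, and at 0.915 and 1.13 FPKM in the same order in p53-/- cells. Fzd8 stood at 0.958 FPKM (untreated) and 0.647 FPKM (Adriamycin) in p53+/+ cells, and at 1.70 and 1.64 FPKM in the same order in p53-/- cells. For Fzd8 both p53-/- libraries lay above both p53+/+ libraries, and for Fzd3 the libraries lay within 0.811 to 1.13 FPKM. The median p53+/+ response of the 12 receptors was -0.21.

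The feedback and target genes differed in both directions as well. Lef1 stood at 14.2 FPKM (untreated) and 3.67 FPKM (Adriamycin) in p53+/+ cells, and at 9.002 and 7.41 FPKM in the same order in p53-/- cells, a 3.87-fold lower level after treatment of p53+/+ cells (difference -1.70). Axin2, a scaffold of the destruction complex and a widely used readout of canonical signalling, stood at 5.25 FPKM (untreated) and 3.19 FPKM (Adriamycin) in p53+/+ cells, and at 3.82 and 3.996 FPKM in the same order in p53-/- cells. Its p53+/+ response was -0.58, with bounds of 4.66 to 5.82 and 2.78 to 3.57 FPKM. Lef1 and Axin2 were thus lowest in the library in which the summed ligand level was highest. In that library Nkd1 and Dkk1 were at their highest, and Tcf7 was neither highest nor lowest.

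Nkd1 and Dkk1 lay on the other side of 0. Nkd1, which binds Dishevelled, stood at 0.495 FPKM (untreated) and 1.93 FPKM (Adriamycin) in p53+/+ cells, and at 0.622 and 0.754 FPKM in the same order in p53-/- cells, a p53+/+ response of 0.97 that fell just short of the call. Dkk1, a secreted inhibitor that binds Lrp5 and Lrp6, stood at 0.695 FPKM (untreated) and 1.94 FPKM (Adriamycin) in p53+/+ cells, and at 0.118 and 0.0643 FPKM in the same order in p53-/- cells. Its p53+/+ response was 0.79, and both p53-/- libraries lay below both p53+/+ libraries. Tcf7 stood at 25.7 FPKM (untreated) and 30.9 FPKM (Adriamycin) in p53+/+ cells, and at 33.2 and 38.8 FPKM in the same order in p53-/- cells, the level in both treated libraries lying above its own upper bound, so that those 2 values are uncertain.

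Of the remaining members, Sfrp1 stood at 11.8 FPKM (untreated) and 2.31 FPKM (Adriamycin) in p53+/+ cells, and at 6.13 and 5.81 FPKM in the same order in p53-/- cells. The level was 5.10-fold lower after treatment of p53+/+ cells (difference -1.95, bounds 10.8 to 12.5 and 1.98 to 2.62 FPKM), and untreated p53-/- cells lay between the p53+/+ libraries. Porcn stood at 47.7 FPKM (untreated) and 25.2 FPKM (Adriamycin) in p53+/+ cells, and at 20.3 and 17.8 FPKM in the same order in p53-/- cells, a p53+/+ response of -0.90. The untreated p53+/+ library was the highest of the 4 for both genes. Ctnnb1 stood at 317 FPKM (untreated) and 312 FPKM (Adriamycin) in p53+/+ cells, and at 257 and 266 FPKM in the same order in p53-/- cells, so its summed level was nearly even. At a step of 1.5-fold, 5 members were lower in the p53+/+ response (Sfrp1, Lef1, Porcn, Fzd7 and Fzd5), where 11.3% of genes at 1 FPKM or more were lower. At the same step 12 of the 30 members at 1 FPKM or more were higher, where 2829 of 13021 such genes were.

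A few markers of cell types were called in the same comparison. Among all named genes 6.63% were higher and 1.62% lower there, and among those at 1 FPKM or more 11.4% and 2.79%. A list with 1 call rests on 1 gene. Of 8 ES cell markers 2, Nanog and Zfp42, were lower in treated p53+/+ cells and 0 higher, and their summed level was 3888 FPKM before and 2711 FPKM after, against 2610 and 2285 FPKM in p53-/- cells. Of 6 mesendoderm markers 1, Mesp1, was higher and 0 lower, with sums of 1.97 and 5.45 FPKM in p53+/+ and 2.61 and 2.82 FPKM in p53-/- cells. Of 7 epiblast and neuroectoderm markers 1 (Otx2) was lower and 0 higher, with sums of 80.3 and 39.8 FPKM in p53+/+ and 159 and 182 FPKM in p53-/- cells. Of 8 trophoblast markers 1 (Eomes) was lower and 0 higher, with sums of 35.1 and 42.2 FPKM in p53+/+ and 73.9 and 68.97 FPKM in p53-/- cells. Of 12 fibroblast markers 1 (Col1a1) was higher and 0 lower, and of 8 primitive endoderm markers 0 were called. The part of these differences in the Wnt results was not tested. In bulk RNA, fewer cells of a type and less RNA per cell cannot be told apart.

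In p53-/- cells 0 of the 39 genes were higher and 0 lower after Adriamycin, where 0.415% of genes at 1 FPKM or more were higher and 0.461% lower. With so few genes called in this genotype, a count of 0 is near the background. The differences of the 39 members ran from -0.25 for Lef1 to 0.42 for Fzd4, and Wnt9a was nearly level with Fzd4 at 0.42. Of the 29 members with usable bounds in both libraries, 2 (Wnt9a and Fzd4) had bounds that did not overlap, where 10% of all named genes with 1 transcript and usable bounds did. In the p53+/+ response 21 of 29 members did, where 36.1% of such genes did. Fzd4 went from 0.484 to 0.991 FPKM in p53-/- and from 1.22 to 0.898 FPKM in p53+/+ cells.

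**Figure D3:**
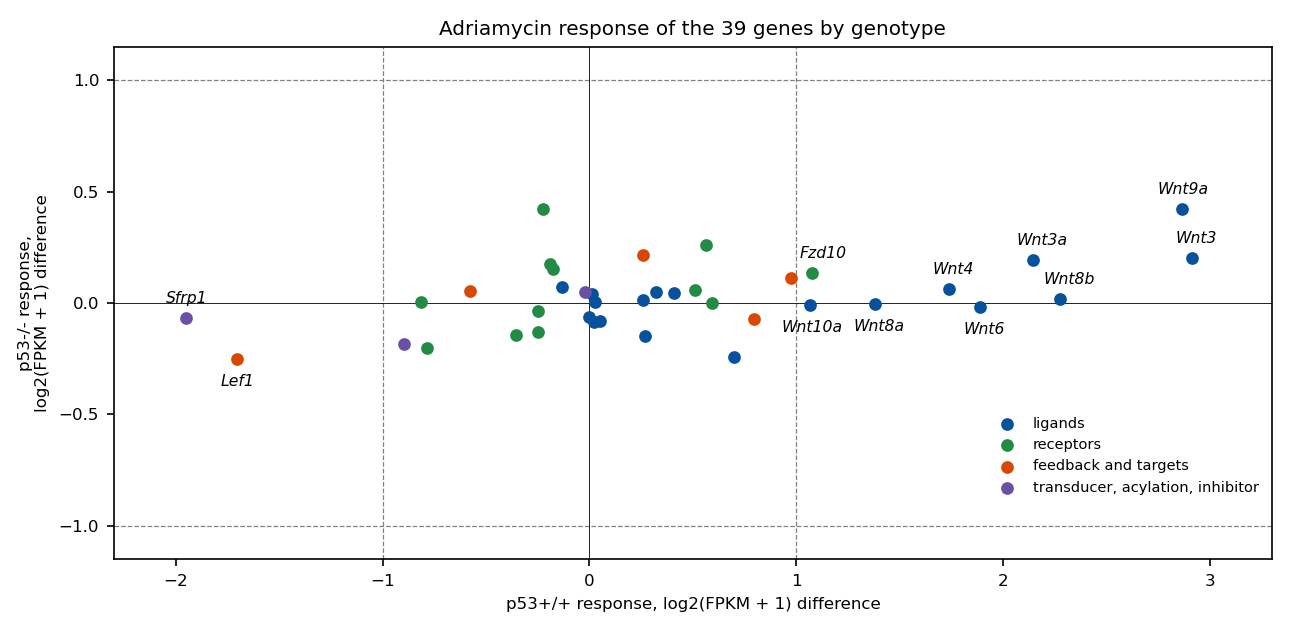
Difference of log2(FPKM + 1) between treated and untreated cells for each of the 39 genes, in p53+/+ cells (horizontal axis) and in p53-/- cells (vertical axis, drawn at a wider scale), coloured by role, with dashed lines at 1 and -1. The labelled genes run from -1.95 (Sfrp1) to 2.91 (Wnt3) on the horizontal axis, and no gene passes 1 or -1 on the vertical axis.

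When the p53-/- response was subtracted from the p53+/+ response, 8 members stood at 1 or more and 2 at -1 or less, where 10.4% and 3.31% of genes at 1 FPKM or more did. The 8 were the ligands called above, from 2.71 for Wnt3 and 2.44 for Wnt9a to 1.08 for Wnt10a. Fzd10 stood at 0.94, below the call, as did Wnt7b at 0.94. Sfrp1 (-1.88) and Lef1 (-1.45) were the 2 below -1. At a 1.5-fold step 6 members lay below, adding Fzd7, Porcn, Fzd4 and Axin2, where 13.8% of genes did. At the same step 12 members lay above, where 2588 of 13021 genes did. This quantity contains the p53+/+ response, so it is not a separate result. After quantile normalization the share of positive calls among all genes called moved from 75.9% to 65.3%.

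Without treatment the genotypes differed in 4 members. Wnt5a, a ligand that mostly signals without beta-catenin, and Fzd2 were higher in p53-/- cells, and Wnt6 and Porcn were lower. The background was 3.51% higher and 3.15% lower among genes at 1 FPKM or more. Fzd2 stood at 1.33 FPKM (untreated) and 0.825 FPKM (Adriamycin) in p53+/+ cells, and at 9.29 and 8.30 FPKM in the same order in p53-/- cells. It was thus 6.96-fold higher in untreated p53-/- cells (difference 2.14), and the p53+/+ and p53-/- levels did not overlap. Wnt5a stood at 0.247 FPKM (untreated) and 0.267 FPKM (Adriamycin) in p53+/+ cells, and at 2.31 and 2.12 FPKM in the same order in p53-/- cells, a difference of 1.41. Wnt2 showed the same order at low levels, from 0.0189 FPKM in untreated p53+/+ to 0.452 FPKM in untreated p53-/- cells.

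The lower members were Wnt6, with a difference of -1.08, and Porcn, 2.35-fold lower in untreated p53-/- cells (-1.19). At a step of 1.5-fold 5 members were lower, adding Sfrp1 (-0.84), Dkk1 (-0.60) and Lef1 (-0.60), where 11% of genes were. The higher members numbered 2 at that step, where 1340 of 13021 genes were higher.

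Markers of cell types also differed between the untreated genotypes. The background was again 3.51% higher and 3.15% lower in p53-/- cells among genes at 1 FPKM or more. Among 12 fibroblast markers, untreated p53-/- cells had 10 higher and 0 lower, and the list summed to 10.3 and 16.05 FPKM in the p53+/+ libraries and 349 and 294 FPKM in the p53-/- libraries. Col3a1, Dcn, Lum and Postn, named after their values were seen, were listed at 0 in both p53+/+ libraries. Of 8 primitive endoderm markers 5 were lower and 0 higher, with sums of 60.0 and 50.6 FPKM in p53+/+ and 12.7 and 11.3 FPKM in p53-/- cells, and Foxa2, which the mesendoderm list also holds, was listed at 0 in untreated p53-/- cells. Of 8 trophoblast markers 3 were higher and 0 lower, and of 7 epiblast and neuroectoderm markers 2 were higher and 0 lower. None of the 8 ES cell markers and none of the 6 mesendoderm markers were called. The ES cell markers still lay below 0 for 7 and above 0 for 1, with a median difference of -0.68. They summed to 3888 FPKM in untreated p53+/+ and 2610 FPKM in untreated p53-/- cells. The part of these markers in the differences of Fzd2, Wnt5a, Wnt6 and Porcn was not tested.

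Between the treated libraries 10 members were lower and 4 higher in p53-/- cells, where 13% and 6.74% of genes at 1 FPKM or more were. The lower ones were the 8 ligands, Fzd10 and Dkk1, from -2.98 for Wnt6 and -2.52 for Wnt3 to -1.05 for Wnt8a, which stood at -0.83 after quantile normalization. Wnt9a, the one of these ligands with at least 1 FPKM in both libraries, was 9.51-fold lower in p53-/- cells. The higher members were Fzd2 (2.35), Wnt5a (1.30, or 0.91 in its main transcript), Sfrp1 (1.04) and Fzd7 (1.02). Fzd2 and Wnt5a were higher in p53-/- cells with and without treatment, whereas Sfrp1 differed by -0.84 and Fzd7 by 0.20 without it. At a 1.5-fold step 7 members were higher, adding Lef1, Fzd9 and Fzd8, where 17.7% of genes were. The lower members numbered 12 at that step, where 3052 of 13021 genes were lower. These comparisons share libraries with those above. After quantile normalization the share of higher genes among all genes called moved from 34.1% to 44.3%. Of the 12 fibroblast markers 9 were higher here as well and 0 lower. Other lists also had calls, with 4 of 7 epiblast and neuroectoderm and 3 of 8 trophoblast markers higher and 0 lower. Lower were 5 of 8 primitive endoderm and 1 of 6 mesendoderm markers, with 0 higher, and 0 of 8 ES cell markers were called.

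The rest of the pathway was read from 7 lists with 77 genes. In the p53+/+ response 11 of the 77 were higher and 1 lower, or 14.3% and 1.30%, beside 6.63% and 1.62% of all named genes. In the R-spondin arm, which keeps Frizzled receptors at the surface, 2 of 9 were higher. Rspo4, a ligand, went from 0.134 to 2.11 FPKM and Lgr6, a receptor, from 0.594 to 3.58 FPKM in p53+/+ cells, against 0.0665 and 0.181 FPKM and 1.32 and 1.29 FPKM in p53-/- cells. Among 13 secreted inhibitors and their receptors 2 were higher, Sfrp2 (3.64 to 11.4 FPKM) and the Dkk receptor Kremen2 (0.568 to 3.68 FPKM). Sfrp2 and the member Sfrp1, of the same family of Wnt-binding proteins, thus differed in opposite directions.

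Of 16 genes of the cytoplasmic relay and destruction complex 1 was higher, Apc2 (0.279 to 1.92 FPKM). Of 11 nuclear partners 1 was higher, the beta-catenin cofactor Bcl9l (2.62 to 8.25 FPKM). Of 11 other targets 1 was higher, Tnfrsf19 (3.14 to 7.41 FPKM), and 1 lower, the cyclin gene Ccnd1 (29.2 to 11.5 FPKM). Tnfrsf19 differed by 1.02 with its transcripts summed and by 0.56 in its main transcript. Of 14 genes of planar polarity and the beta-catenin independent arm 4 were higher. These were the Wnt co-receptor Ptk7 (32.7 to 109.6 FPKM), the polarity cadherins Celsr1 (4.16 to 18.5 FPKM) and Celsr2 (0.787 to 3.31 FPKM), and Camk2b (8.28 to 21.8 FPKM). Celsr2 differed by 1.27 with its transcripts summed and by 0.89 in its main transcript. Of the 3 genes of ligand secretion and removal 0 were called.

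**Figure D4:**
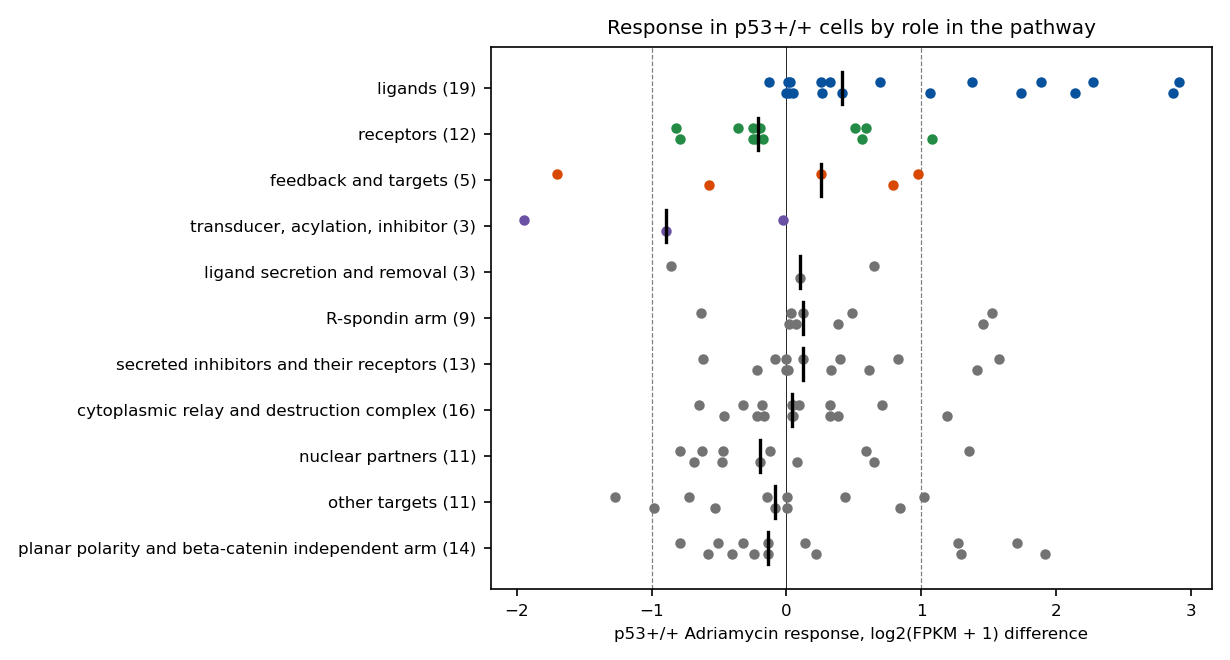
p53+/+ response to Adriamycin (difference of log2(FPKM + 1), horizontal axis) of every gene in the 4 roles of the 39 members (coloured) and in the 7 lists of other pathway genes (grey), with the number of genes in brackets, a black bar at each median and dashed lines at 1 and -1. The ligands reach 2.91 with a median of 0.41, while the receptors have a median of -0.21 and no other list passes 1.92 (Celsr1).

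In p53-/- cells 0 of the 77 were called after treatment in either direction. Only 0.415% of genes at 1 FPKM or more were higher and 0.461% lower there, so a count of 0 is near the background. Of the 77, 57 reached 1 FPKM in a library. Without treatment 4 of the 57 were higher and 3 lower in p53-/- cells. The background was 3.51% higher and 3.15% lower among all genes at that level. Between the treated genotypes 8 of the 57 were higher and 6 lower, beside 6.74% and 13% of all genes at that level. No contrast of these small counts with the background was tested. The untreated higher ones were Wls, which carries Wnts to the cell surface (0.656 against 4.91 FPKM), Prickle1 (0.327 against 2.52 FPKM), Tcf7l1, the main TCF repressor of ES cells (17.9 against 43.2 FPKM), and Znrf3, a ligase that removes Frizzled receptors (3.11 against 7.66 FPKM). Tcf7l1 differed by 1.22 with its transcripts summed and by 0.94 in its main transcript. The lower ones were Celsr1 (4.16 against 0.883 FPKM), the homeobox target Cdx1 (2.55 against 0.649 FPKM) and the Wnt5a receptor Ror2 (6.97 against 2.83 FPKM). Wnt5a and Ror2 therefore differed in opposite directions between the untreated genotypes.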

How the data were processed

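Each library has 1 deposited table with FPKM per transcript, in Cufflinks layout per the file headers. The deposited tables also give FPKM bounds, read coverage (a signal, the mean depth per base) and transcript length. Per the submitters' processing notes, the build was mm9 and the tools included Cufflinks, TopHat, TopHat2 2.0.5 and CASAVA 1.8.1, with no role or order given. Not given in the sources used here are the annotation, the Cufflinks version and the use of strand. An exome enrichment kit is also named, per the labels' protocols. Whether these libraries were enriched with it is not given, and capture would change which transcripts, and how much of each, the FPKM values hold. FPKM is not a count, so no count test was run.

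Of 30769 rows, 30227 were named from a RefSeq table of GRCm38 and 180 more from GENCODE M21, 362 stayed unnamed, and 800 named rows under 200 bases were left out. That assembly gave only names, strands and promoter sequences. Positions are those of the deposited tables, counted from 1. FPKM was summed per gene and 1 FPKM added before log2. Comparisons made were the response in each genotype, the genotypes in each treatment, and the difference of the responses. The members and lists were chosen with earlier results of these data known. All members at 1 FPKM or more are named with values, and of the other pathway lists the genes past 1 in the p53+/+ response or between the untreated genotypes. Bounds are printed for genes with 1 transcript whose FPKM lies within them. Rows with status OK lying above their own upper bound numbered 1525 to 2036 a library. The alternatives tried were a pseudocount of 0.1 or 5 FPKM, a filter of 5 FPKM or none, the main transcript, 3 scalings, status OK rows and a 1.5-fold step. Python 3.11.15, pandas 2.3.3, numpy 2.4.6 and matplotlib 3.10.9 were used. The calculation was tested on simulated data with large changes planted only in genes at 5 FPKM or more. That test does not cover calls at the low levels of the ligands.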

Additional observations from a re-analysis of the deposited data

Results flagged for a closer look

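Of the members called in the p53+/+ response, 3 had responses of opposite sign in the 2 genotypes, though 1 library per group means that this was not tested. Larger gaps, with the same sign in both genotypes, belonged to Wnt3 (2.71), Wnt9a (2.44), Wnt8b (2.25) and Wnt3a (1.95). Wnt6 differed by 1.89 in p53+/+ and by -0.016 in p53-/- cells, a gap of 1.90. Wnt8a differed by 1.38 in p53+/+ and by -0.005 in p53-/- cells, a gap of 1.38. Wnt10a differed by 1.07 in p53+/+ and by -0.0067 in p53-/- cells, a gap of 1.08. The negative values are close to 0, so the gap is nearly the whole p53+/+ response.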

How the results depend on the processing

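With 1 library per group no replicate could be left out, and depth limits the ligands most, whose low levels rest on few reads. No paired analysis was possible because each group has 1 library and the results come from no test. In the p53+/+ response all 9 higher and 2 lower members kept their direction under every setting. A pseudocount of 5 FPKM left 3 of the 9 past 1 (Wnt3, Wnt6 and Wnt9a) and quantile normalization left 7. The count of higher members was 3 with a pseudocount of 5 FPKM and 5 with a filter of 5 FPKM, which tests fewer genes, and the count of lower members 5 at a 1.5-fold step. The untreated genotypes gave 4 higher members with a pseudocount of 0.1 FPKM, 1 with 5 FPKM and 1 with a filter of 5 FPKM. Lower ones were 6 with 0.1 FPKM, 1 with 5 FPKM and 5 at a 1.5-fold step. The treated genotypes gave 1 higher and 4 lower member calls with a pseudocount of 5 FPKM, 5 lower with a filter of 5 FPKM and 7 higher at a 1.5-fold step. The difference of responses gave 3 members above with a pseudocount of 5 FPKM, 4 with a filter of 5 FPKM, and 1 below with a pseudocount of 5 FPKM or 6 at a 1.5-fold step. The median of the 11 ligands at 1 FPKM or more was 1.74, and moved to 2.98 with a pseudocount of 0.1 FPKM, 0.67 with 5 FPKM and 0.41 without a filter. The filter keeps ligands that reached 1 FPKM only in the treated p53+/+ library, so the median of all 19 is the one to read. The receptor median of -0.23 moved to -0.077 with a pseudocount of 5 FPKM and -0.52 after quantile normalization. The feedback median of 0.26 moved to -0.58 with a filter of 5 FPKM. Of the 30 single p53+/+ responses, 13 moved by over 1.5 times and by at least 0.1 with a pseudocount of 0.1 FPKM, 19 with 5 FPKM, 15 after quantile normalization and 2 (Fzd6 and Ctnnb1) with the main transcript. Upper quartile scaling, median of ratios scaling and rows of status OK moved 0 of them by that measure, although the small values of Ctnnb1 and Wnt5a changed by over 1.5 times, and by less than 0.1, under median of ratios scaling.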

Other observations

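Single transcripts of members with several rows were also read. Ctnnb1 has an entry of 3623 bases and one of 3423 bases with different start positions. The shorter one stood at 117 and 48.97 FPKM in p53+/+ cells (untreated, then Adriamycin) and 0.0571 and 8.34 FPKM in p53-/- cells, and the longer one at 199 and 263 FPKM in p53+/+ cells (untreated, then Adriamycin) and 257 and 258 FPKM in p53-/- cells. The short entry was thus far higher in the p53+/+ libraries while the gene's sum stayed between 257 and 317 FPKM. Lef1 has 3 entries. The one of 3532 bases stood at 9.63 and 1.81 FPKM in p53+/+ cells (untreated, then Adriamycin) and 6.64 and 4.997 FPKM in p53-/- cells, the one of 2305 bases, which begins further downstream, at 4.56 and 1.86 FPKM in p53+/+ cells (untreated, then Adriamycin) and 2.03e-05 and 0.735 FPKM in p53-/- cells, and the one of 3657 bases at 0.000294 and 6.00e-06 FPKM in p53+/+ cells (untreated, then Adriamycin) and 2.36 and 1.68 FPKM in p53-/- cells. These entries share most of their sequence, so the split between them rests on the authors' assignment of shared reads, and no value here says how sure it is.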
